A study of Mus musculus with 56 samples.

Results

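The spinal cord of healthy young adult mice was compared between 14 and 9 weeks of age in the Chat bacTRAP line, the transgenic control without human TDP-43. The libraries were chosen by their titles, which give genotype, age, fraction and replicate number, and they make up 11 of the 56 libraries of the series, 5 at 14 weeks and 6 at 9 weeks. All 11 are polyadenylated RNA of spinal cord lysate, without selection of a cell type, from strain Chat bacTRAP line DW167 DW167Htz/J. The study describes the mice as female and congenic on C57BL/6J. Every one of these mice, at both ages, carries a bacterial artificial chromosome that expresses the EGFP-tagged ribosomal protein L10a in Chat-positive cells, so no mouse without a transgene was measured. The cord libraries are input RNA kept from the lysates in which ribosomes of motor neurons were then pulled down (MN-TRAP). The study cleared these lysates of debris by centrifugation before the input was set aside. RNA of all cell types is pooled in them. The sample labels place the tissue in the cervical cord, whereas the study speaks only of spinal cord, and which levels were taken was not established. The 2 other lines with cord libraries carry human TDP-43 under the prion promoter besides the Chat bacTRAP transgene: TDP-43WT (hTDP-43 WT, 5 libraries at 14 weeks and 6 at 9 weeks) and TDP-43A315T (A315T, 4 libraries at 14 weeks and 5 at 9 weeks).

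At these ages the mouse is sexually mature and its cord has reached its adult form. Neurons are no longer born, but myelination goes on slowly: precursor cells still divide, pass through a short premyelinating stage and become oligodendrocytes, which build the sheath from lipids, above all cholesterol made in the cell itself, and from a small set of abundant proteins. Microglia, astrocytes and the vessel wall also continue to mature in young adults. The comparison of 14 with 9 weeks in a healthy line asks which transcripts differ between these ages without human TDP-43, over the interval in which the A315T line becomes symptomatic. Library measures that also differ between the ages are given next.

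Libraries at 14 weeks held 24.4 to 62.8 M gene counts (M, mega-counts; 41.6 ± 15.1, SD, n = 5) and those at 9 weeks 17.5 to 34.5 M (27.1 ± 7.50, n = 6). The difference of 14.5 M had p = 0.0649 (exact two-sided permutation test over 462 splits). Mitochondrially encoded genes took 1.139%, 8.53%, 6.42%, 5.52% and 7.65% of the counts at 14 weeks (replicates 1 to 5) and from 0.980% to 5.41% at 9 weeks. This gave means of 5.85% ± 2.87 and 2.99% ± 1.80 (SD; exact p = 0.0801). Replicate 1 of 14 weeks and replicates 1 and 2 of 9 weeks were low, at 0.980% to 1.139%. The same 3 libraries were the lowest in Neat1, a nuclear long noncoding RNA, with 188 to 287 CPM (counts scaled to the depth of each library) against 456 to 898 CPM in the other 8. They were also the lowest in Xist, the nuclear RNA of the inactive X chromosome, at 1.137 to 1.68 CPM against 4.82 to 13.3 CPM. Neat1 averaged 678 ± 242 CPM at 14 weeks and 429 ± 163 CPM at 9 weeks (log2 change 0.66, adjusted p = 0.671), and Xist 8.22 ± 4.52 CPM at 14 weeks and 5.33 ± 3.70 CPM at 9 weeks (log2 change 0.61, adjusted p = 0.718). The part of nuclear RNA in the results was not tested. Over the 500 genes that varied most, 39.1% of the variance lay on principal component 1, with replicate 2 of 14 weeks at one end and replicate 2 of 9 weeks at the other. Replicate 2 of 14 weeks also had the highest skeletal muscle signal, a sum of 2809.5 CPM over 25 muscle genes, with 491 to 529 in the other libraries of 14 weeks and 387 to 1987 at 9 weeks. Age accounted for 7.46% of the variance of the 500 genes. No 2 of the 11 libraries were near copies of each other (lowest chi-square 12.2 per gene over 55 pairs).

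**Figure D1:**
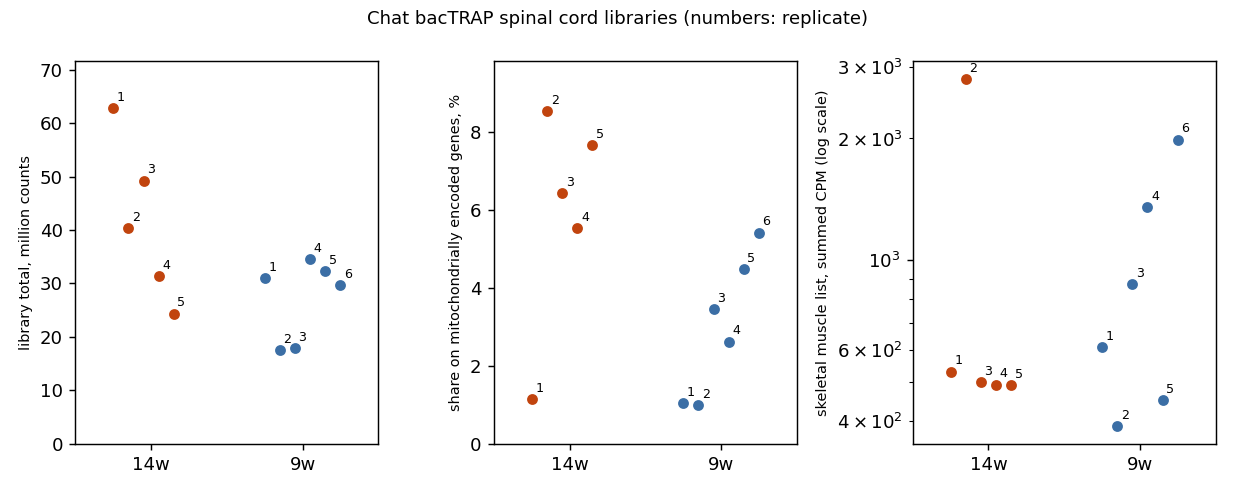
Library total in counts per library (M), share of counts on mitochondrially encoded genes in percent, and summed CPM of the skeletal muscle list on a log scale, 1 point per library with its replicate number, 14 weeks left and 9 weeks right. Replicate 1 of 14 weeks and replicates 1 and 2 of 9 weeks lie at or below 1.139% mitochondrially encoded counts, and replicate 2 of 14 weeks has the highest muscle signal at 2809.5 CPM.

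None of the single tissue markers looked up passed the test between the ages, and some stood closer together than others. Chat, the acetylcholine-synthesizing enzyme of motor neurons, averaged 19.5 ± 7.14 CPM at 14 weeks and 19.4 ± 9.41 CPM at 9 weeks (SD, n = 5 and 6; log2 change 0.01, adjusted p = 0.987). The microglial gene Aif1 (log2 change -0.07), the endothelial tight junction gene Cldn5 (-0.08), the motor neuron factor Mnx1 (-0.10) and the mouse Tardbp gene (0.10) had adjusted p from 0.784 to 0.959. Aif1 and Cldn5 do not stand for their lists, since 20 of 22 genes of homeostatic microglia and 18 of 20 endothelial genes were above 0. The astrocyte genes Gfap (log2 change -0.34) and Aldh1l1 (-0.29) and the myelin gene Mog (-0.28) were further from 0, each with an adjusted p of 0.671. The Y-linked gene Ddx3y was at 0 in 10 of the 11 libraries and at 0.105 CPM in 1.

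Across 18178 genes tested with edgeR's quasi-likelihood test, 1 gene passed an adjusted p of 0.05 (0.0055% of those tested) and none passed it with a change of at least 2-fold. The gene was Rab7b, and it fell. Without adjustment, 1221 genes (6.72%) had a p under 0.05, of which 740 (4.07%) were higher and 481 (2.65%) lower at 14 weeks. The log2 change was above 0 in 9290 genes and below 0 in 8888. DESeq2 called 5 genes and limma-voom 2 in the same 31 cord libraries. The typical standard error of a log2 change was 0.17 (median over genes), so that small changes of single genes could not be told from the spread between libraries at this number of libraries. In bulk tissue, fewer cells of a type and less RNA per cell cannot be told apart, which holds for every gene below. Nothing in the labels says how many animals gave the libraries, and the p-values measure the spread between these libraries.

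Rab7b encodes a small GTPase of late endosomes and lysosomes that acts in traffic between endosomes and the Golgi. The gene (ENSMUSG00000052688, GRCm38 chromosome 1, 131688695 to 131715439, plus strand) is protein-coding and overlaps no other annotated gene. Its level was 10.1, 6.02, 7.71, 8.21 and 6.89 CPM in the libraries of 14 weeks, replicates 1 to 5, and between 10.9 and 14.4 CPM with a median of 13.5 CPM at 9 weeks. All 5 libraries of 14 weeks lay below all 6 of 9 weeks, and the one closest to them was replicate 1, one of the 3 libraries poor in mitochondrially encoded RNA. The means were 7.78 ± 1.53 CPM at 14 weeks and 13.2 ± 1.26 CPM at 9 weeks (SD, n = 5 and 6), a log2 change of -0.76 (SE 0.11, adjusted p = 0.00139). Without those 3 libraries the log2 change was -0.83, and with the mitochondrial share as a covariate -0.68, and Rab7b passed the test in both. The call also held in each fit that left out a single library. It was lost with the 11 libraries alone, with all 56, and with the replicate number as a block in 10 libraries. With the 11 libraries alone the log2 change was -0.76 and the adjusted p 0.573, and with all 56 libraries, MN-TRAP included, -0.76 and 0.9998.

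Rab7b was also lower at 14 weeks in both TDP-43 lines, whose libraries share none with those of the Chat bacTRAP line. In hTDP-43 WT cord it averaged 9.65 ± 0.824 CPM at 14 weeks (n = 5) and 12.1 ± 0.448 CPM at 9 weeks (n = 6), with no overlap between the ages. The exact two-sided permutation p was 0.00216, the smallest that 462 splits allow, and 0.00432 adjusted over the 2 lines. In A315T cord it averaged 9.81 ± 1.09 CPM at 14 weeks (n = 4) and 12.9 ± 1.24 CPM at 9 weeks (n = 5), again with no overlap (exact p = 0.00794, the smallest that 126 splits allow, and the same after adjustment). Genes lower at 14 weeks without overlap made up 0.325% of those tested in hTDP-43 WT cord and 0.847% in A315T cord. The gene was looked up in these lines after it had been called in the Chat bacTRAP line. By edgeR its log2 changes there were -0.33 (adjusted p = 0.493) and -0.40 (adjusted p = 0.9998). The change in the Chat bacTRAP cord minus that in hTDP-43 WT or A315T cord was -0.43 or -0.36 on the log2 scale, differences that did not pass the edgeR test over all genes (adjusted p = 0.999 for both). Rab7, the widely expressed relative of Rab7b that directs traffic to lysosomes, was looked up after the values were seen. Its level was 304 ± 12.7 CPM at 14 weeks and 304 ± 20.8 CPM at 9 weeks (log2 change 0.00, SE 0.07).

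**Figure D2:**
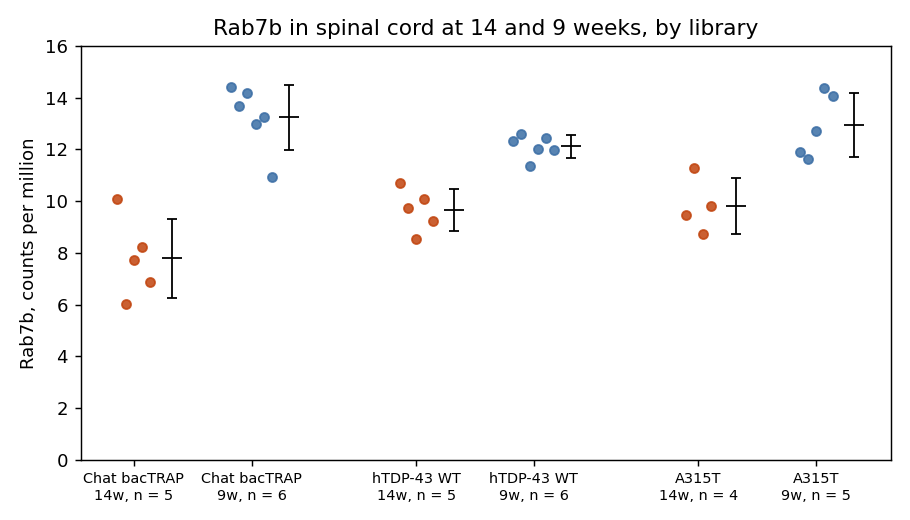
Rab7b in CPM in spinal cord libraries of the Chat bacTRAP, hTDP-43 WT and A315T lines, with 14 weeks left of 9 weeks in each line; points are libraries, bars the mean and SD. In the Chat bacTRAP line the 5 libraries of 14 weeks run up to 10.1 CPM and the 6 of 9 weeks start at 10.9 CPM, and the ages do not overlap in the other lines either.

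Among the other genes, the strongest candidates below Rab7b by p did not pass adjustment, and their values are given as measured. Marcksl1, an actin-binding protein of growing and migrating cells, stood at 88.2, 89.5, 79.8, 59.3 and 74.6 CPM at 14 weeks and between 102 and 119 CPM with a median of 113 CPM at 9 weeks (log2 change -0.50, SE 0.12, adjusted p = 0.489), without overlap. Rassf10, a member of the Ras association domain family, stood at 1.18, 1.23, 1.23, 1.26 and 0.689 CPM at 14 weeks and between 1.55 and 2.28 CPM at 9 weeks (log2 change -0.83, SE 0.20, adjusted p = 0.489), also without overlap. In all, 24 genes (0.132%) were lower and 15 (0.0825%) higher at 14 weeks with no overlap between the ages. Whether such numbers also arise without a difference of age was not tested. A lack of overlap, here and for the genes below, therefore describes the values and does not mark a gene as changed. Gramd3 had the smallest p after Rab7b among the lower genes, with 31.2 ± 4.09 CPM at 14 weeks and 41.1 ± 3.43 CPM at 9 weeks (log2 change -0.40, SE 0.08, adjusted p = 0.15), and only replicate 5 of 14 weeks reached the range of 9 weeks. DESeq2 (adjusted p = 0.000571) and limma-voom (0.0009) called it. Oser1, an oxidative stress responsive gene, had means of 2.36 ± 0.736 CPM at 14 weeks and 3.67 ± 0.871 CPM at 9 weeks (log2 change -0.62, adjusted p = 0.671).

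On the higher side, Fmo2 and Plin4 had the smallest p. Fmo2, a flavin-containing monooxygenase that oxidizes foreign compounds, stood at 1.28, 5.61, 2.99, 2.30 and 2.24 CPM at 14 weeks and between 0.510 and 1.38 CPM with a median of 0.816 CPM at 9 weeks (log2 change 1.76, SE 0.35, adjusted p = 0.15). Replicate 1 of 14 weeks lay inside the range of 9 weeks and the other 4 above it. Without that replicate the gene passed the test (log2 change 1.95, adjusted p = 0.0384), as it did with DESeq2 (adjusted p = 0.00604). Plin4, which coats lipid droplets, stood at 10.8, 18.6, 10.1, 15.3 and 10.03 CPM at 14 weeks and between 2.22 and 7.66 CPM with a median of 4.54 CPM at 9 weeks (log2 change 1.45, SE 0.32, adjusted p = 0.391), without overlap. DESeq2 called it (adjusted p = 0.0313). Plin4 overlaps Hdgfl2 on the opposite strand, and the library kit does not mark strand, so reads of the shared stretch cannot be assigned to 1 of them with certainty. The log2 changes of these genes in the other lines were smaller, at 0.30 and 0.36 for Fmo2 and 0.25 and 0.15 for Plin4 in hTDP-43 WT and A315T cord. The differences between lines did not pass the edgeR test (adjusted p = 0.999 for each).

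Mlph, the melanophilin that links Rab27a to a myosin motor, had 2.34 ± 0.477 CPM at 14 weeks and 1.29 ± 0.300 CPM at 9 weeks (log2 change 0.84). Apbb1ip, which couples Rap1 to integrins in leukocytes, had 7.99 ± 0.947 CPM at 14 weeks and 5.59 ± 0.521 CPM at 9 weeks (log2 change 0.51). Neither gene had overlap between the ages, and both had an adjusted p of 0.671. Xdh, the purine-degrading xanthine dehydrogenase, had a log2 change of 1.00 (adjusted p = 0.489) that was 0.63 without replicate 2 of 14 weeks, which at 7.64 CPM was the highest of its age. The drug-metabolizing cytochrome Cyp3a13 had a log2 change of 0.97 (adjusted p = 0.671), and 0.64 with the mitochondrial share as a covariate.

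**Figure D3:**
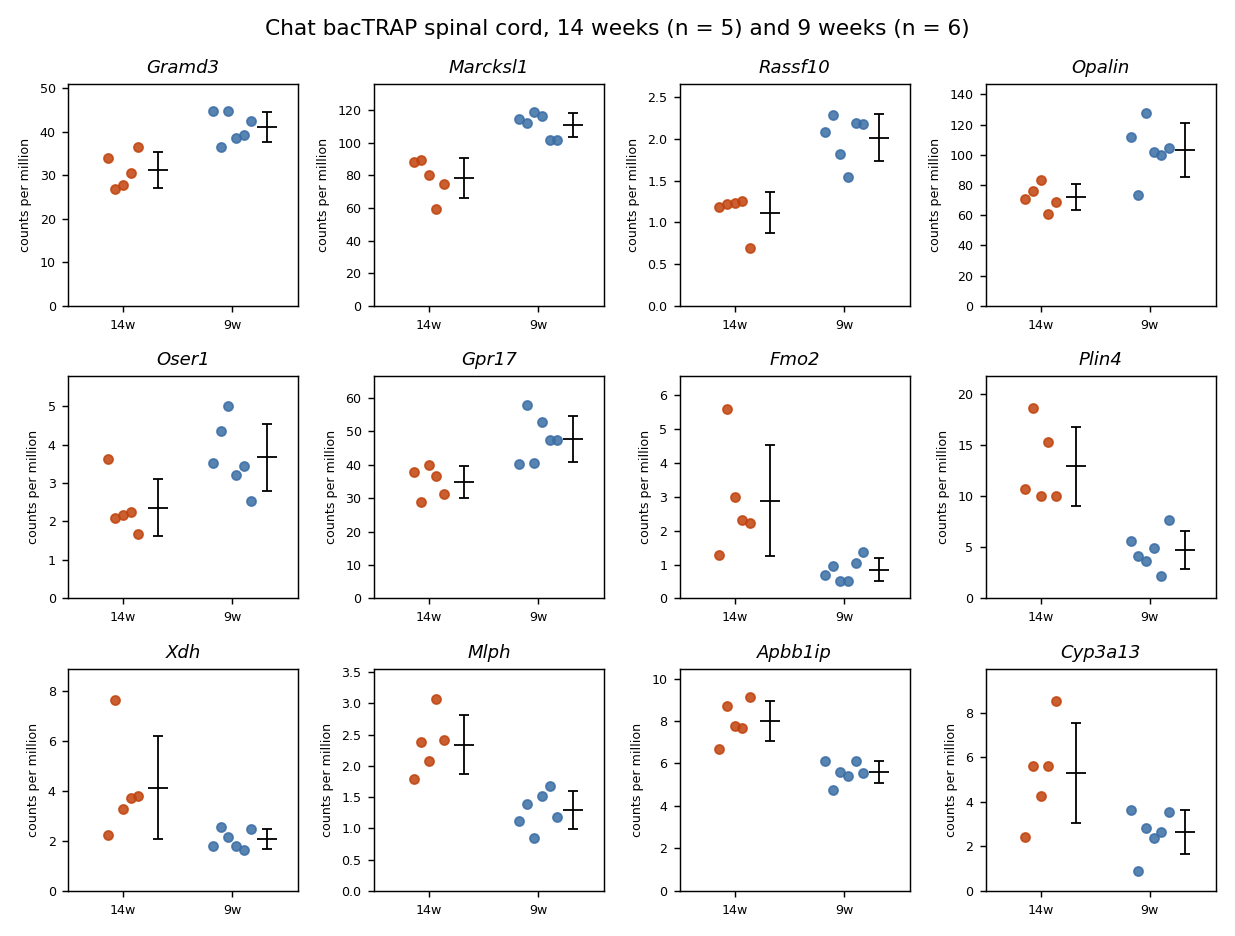
CPM of 12 genes in each Chat bacTRAP cord library at 14 weeks (left, n = 5) and 9 weeks (right, n = 6) with the mean and SD beside the points; each panel has its own scale from 0. Marcksl1, Rassf10, Gpr17, Plin4, Mlph and Apbb1ip have no overlap between the ages, whereas Gramd3, Opalin, Oser1, Fmo2, Xdh and Cyp3a13 overlap in 1 or more libraries.

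Genes of the oligodendrocyte lineage were more often lower than higher at 14 weeks, by small amounts, and none passed the test. Of 27 genes of mature oligodendrocytes and myelin, 18 had a log2 change below 0 and 9 above, with a median of -0.07 beside 0.01 over all genes; 4 were lower and none higher at an unadjusted p of 0.05, beside 2.65% lower and 4.07% higher of all genes. Opalin, a membrane protein of the myelin paranode, stood at 71.0, 76.0, 83.5, 60.8 and 68.7 CPM at 14 weeks and between 73.3 and 128 CPM with a median of 103 CPM at 9 weeks (log2 change -0.52, SE 0.14, adjusted p = 0.671). The lowest library of 9 weeks lay inside the range of 14 weeks and the other 5 above it. In hTDP-43 WT cord its log2 change was -0.36, and in A315T cord 0.18. The surface glycoprotein Mog had a log2 change of -0.28, the hydroxylase Fa2h of myelin sphingolipids -0.27, and Cnp, the enzyme of non-compact myelin, -0.38 (each adjusted p = 0.671); Cnp overlaps Dnajc7 on the other strand, and its log2 change was -0.19 with the mitochondrial share as a covariate. The median of the list was -0.13 in hTDP-43 WT cord and -0.06 in A315T cord.

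Of 23 genes of oligodendrocyte precursors and newly formed oligodendrocytes, 14 were below 0 and 9 above, with a median of -0.11, and 5 were lower and 1 higher at an unadjusted p of 0.05 (2.65% and 4.07% of all genes). With limma-voom the median was -0.03. Gpr17, a receptor that cells carry during the premyelinating stage and lose as they mature, stood at 37.7, 28.8, 40.0, 36.6 and 31.1 CPM at 14 weeks and between 40.3 and 57.9 CPM with a median of 47.3 CPM at 9 weeks (log2 change -0.45, SE 0.13, adjusted p = 0.671). The ages did not overlap, and the closest libraries were 40.0 and 40.3 CPM. The same gene had a log2 change of -0.43 (adjusted p = 0.493) in hTDP-43 WT cord and -0.50 (adjusted p = 0.9998) in A315T cord, with overlap in both. Gpr17 overlaps Lims2, which lies on the opposite strand. The small GTPase Rras2 had log2 changes of -0.37 in the Chat bacTRAP line, -0.59 in hTDP-43 WT and -0.27 in A315T, and the kinesin Kif19a -0.47, -0.54 and -0.19. Vcan, a matrix proteoglycan made by precursors, was the 1 member higher at an unadjusted p of 0.05, at 27.2 ± 10.2 CPM at 14 weeks and 18.2 ± 4.04 CPM at 9 weeks (log2 change 0.58), and 0.22 with the mitochondrial share as a covariate.

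Genes of cholesterol synthesis and uptake were mostly lower at 14 weeks. Of 24 such genes, 20 had a log2 change below 0 and 4 above, with a median of -0.15, and 8 were lower and none higher at an unadjusted p of 0.05, beside 2.65% lower among all genes tested. None of the 24 passed the adjusted test, and the list was chosen with earlier results of these libraries known. The mean log2 CPM over the 24 genes lay between 5.54 and 5.56 in the 5 libraries of 14 weeks and between 5.71 and 5.82 in the 6 libraries of 9 weeks, so the groups did not overlap. Without the 3 libraries poor in mitochondrially encoded RNA the median was -0.13, with 20 of 24 genes below 0, and with the mitochondrial share as a covariate it was -0.22, with all 24 below 0. In the other lines the median was -0.05 in hTDP-43 WT and -0.01 in A315T cord. Medians of similar size were found in Chat bacTRAP cord for 2 lists described further on. Nuclear oxidative phosphorylation genes had -0.20 (32 of 32 below 0, 3 lower at an unadjusted p of 0.05). Cytosolic ribosomal protein genes had -0.15 (32 of 37 below 0, 1 lower at that p). Whether the means of other lists also separate the ages is not given here.

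Along the pathway, the enzymes of the isoprenoid steps and of squalene synthesis had the smallest p. Fdps, which makes farnesyl diphosphate, stood at 42.5, 36.6, 41.4, 34.1 and 27.4 CPM at 14 weeks and between 44.5 and 57.6 CPM with a median of 54.0 CPM at 9 weeks (log2 change -0.53, SE 0.15, unadjusted p = 0.00103, adjusted p = 0.671). Mvd, the mevalonate diphosphate decarboxylase, stood at 37.0, 42.8, 34.9, 32.9 and 20.2 CPM at 14 weeks and between 43.4 and 56.8 CPM with a median of 52.1 CPM at 9 weeks (log2 change -0.61, SE 0.19, unadjusted p = 0.00359, adjusted p = 0.671). Neither gene had overlap between the ages, and replicate 5 of 14 weeks was the lowest library for both. Squalene synthase (Fdft1) had a log2 change of -0.32 and squalene epoxidase (Sqle) -0.24; both overlapped between the ages. Mvd and Fdft1 each overlap another protein-coding gene on the opposite strand, and Fdps overlaps the protein-coding Gm43738 on its own strand. Hmgcs1, Ebp and Mvk, also at an unadjusted p below 0.05, were named after their values were seen, with log2 changes of -0.32, -0.26 and -0.41. That of Mvk was -0.24 with the mitochondrial share as a covariate.

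**Figure D4:**
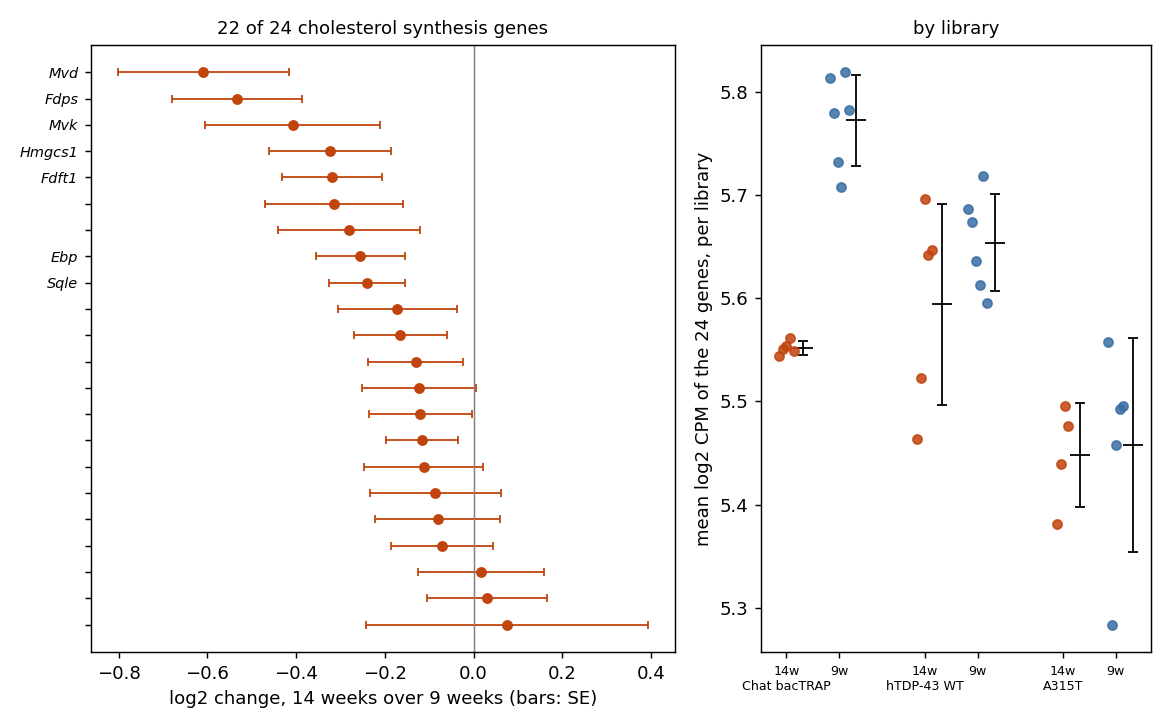
Left, log2 change at 14 over 9 weeks with its SE for 22 of the 24 cholesterol genes in Chat bacTRAP cord, with names beside those given in the text; right, the mean log2 CPM over the 24 genes in each cord library of the 3 lines with its mean and SD, 14 weeks left of 9 weeks. Of the 22 genes drawn, 19 lie below 0, and the Chat bacTRAP libraries of 14 weeks (5.54 to 5.56) lie below those of 9 weeks (5.71 to 5.82).

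Promoters of this group share a simple letter pattern, and 3 of them are printed because their genes were among the 8 above. The 250 bases before the start site of 16 of the 24 genes could be matched in RefSeq (GRCm38.p6), and all 16 held CCAAT, the box bound by the factor NF-Y, on either strand, beside 37.5% of 27025 genes. It was also in 12 of the 19 matched promoters (63.2%) of the glucocorticoid list described further on. CCAAT was looked for after other patterns had been tried, of which the sterol regulatory element (an exact core of 10 bases, both strands) was in 0 of the 16 and in 0.0814% of all genes. With only 22 of 27025 genes holding this exact core, a 0 among 16 cannot show whether variants of the element are present. A match is a description of the letters and not a measured binding site. The sequences run 5′ to 3′ on the strand of the gene and end at the base before the start site, with CCAAT and its reverse complement in capitals.

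Mvd, chr8:122443423-122443672, minus strand: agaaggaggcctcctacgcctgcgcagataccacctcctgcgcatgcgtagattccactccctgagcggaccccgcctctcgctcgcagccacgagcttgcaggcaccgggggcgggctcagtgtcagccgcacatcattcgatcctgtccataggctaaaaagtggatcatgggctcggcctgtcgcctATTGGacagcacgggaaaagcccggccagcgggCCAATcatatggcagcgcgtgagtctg
Hmgcs1, chr13:119690101-119690350, plus strand: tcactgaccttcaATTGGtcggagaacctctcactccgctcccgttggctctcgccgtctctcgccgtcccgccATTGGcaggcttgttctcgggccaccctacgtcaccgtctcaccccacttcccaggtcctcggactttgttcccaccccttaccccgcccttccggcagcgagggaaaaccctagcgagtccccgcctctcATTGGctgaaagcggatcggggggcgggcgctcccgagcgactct
Ebp, chrX:8193513-8193762, minus strand: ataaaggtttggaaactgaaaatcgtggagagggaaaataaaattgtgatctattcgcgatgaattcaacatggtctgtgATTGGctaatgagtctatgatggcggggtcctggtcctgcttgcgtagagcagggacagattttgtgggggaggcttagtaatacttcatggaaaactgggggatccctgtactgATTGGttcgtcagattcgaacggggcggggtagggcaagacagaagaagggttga

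Mvd held 2 copies, the nearest ending 22 bases before the start, Hmgcs1 3 copies with the nearest at 40 bases, and Ebp 2 copies with the nearest at 50 bases. In the libraries these genes had log2 changes of -0.61, -0.32 and -0.26. Hmgcs1, an early enzyme of the pathway, stood at 406, 464, 413, 471 and 683 CPM at 14 weeks and between 434 and 764 CPM with a median of 632 CPM at 9 weeks, and 3 libraries of 14 weeks lay in that range. Ebp, a sterol isomerase, stood at 29.8, 33.2, 34.9, 28.6 and 28.3 CPM at 14 weeks and between 31.7 and 45.5 CPM with a median of 35.5 CPM at 9 weeks, and 2 libraries of 14 weeks lay in that range.

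Genes of growing neurons and of transmission split in both directions. Of 28 genes of axon growth and early neuronal development, 14 lay on each side of 0 (median 0.02), with 2 higher and 3 lower at an unadjusted p of 0.05 (4.07% and 2.65% of all genes). Besides Marcksl1, the tubulin Tuba1a, the main alpha-tubulin of postmitotic neurons, averaged 366 ± 85.3 CPM at 14 weeks and 471 ± 32.4 CPM at 9 weeks (log2 change -0.36). Stmn1, a microtubule-destabilizing protein, averaged 33.3 ± 6.09 CPM at 14 weeks and 40.3 ± 3.55 CPM at 9 weeks (log2 change -0.27). Both had an adjusted p of 0.671. With the mitochondrial share as a covariate their log2 changes were -0.18 and -0.17. Among 27 genes of cholinergic and motor neurons, 17 were above 0 (median 0.07), and 2 were higher and none lower at an unadjusted p of 0.05, beside the same shares. Slc5a7, which takes choline back up into cholinergic terminals, stood at 74.5, 85.9, 78.4, 134 and 176 CPM at 14 weeks and between 59.8 and 81.5 CPM with a median of 72.4 CPM at 9 weeks (log2 change 0.62, SE 0.27, adjusted p = 0.671). Replicates 4 and 5 were the highest. With the mitochondrial share as a covariate the log2 change was 0.34, and with limma-voom 0.26. It was 0.60 in hTDP-43 WT and 0.16 in A315T cord.

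Astrocyte genes also split. Of 21, 13 were above and 8 below 0 (median 0.12), with 4 higher and 1 lower at an unadjusted p of 0.05, beside 4.07% higher and 2.65% lower of all genes. The lower one was Gfap, the intermediate filament of astrocytes, which averaged 1026 ± 218 CPM at 14 weeks and 1302 ± 206 CPM at 9 weeks (log2 change -0.34, adjusted p = 0.671). The bicarbonate transporter Slc4a4 (log2 change 0.59) and the sodium pump subunit Atp1b2 (0.39) had the opposite sign. With the mitochondrial share as a covariate the log2 changes were -0.21 for Gfap, 0.26 for Slc4a4 and 0.17 for Atp1b2. With the same covariate the median was 0.00 and no member had an unadjusted p under 0.05 in either direction.

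Immune genes were mostly above 0, and less so without 1 library. Of 22 interferon-responsive genes 19 were above 0 (median 0.31) and 3 were higher at an unadjusted p of 0.05 (4.07% of all genes); without replicate 2 of 14 weeks the median was 0.10 and none had an unadjusted p under 0.05. Irf7, a transcription factor of the interferon response, stood at 3.02, 14.8, 5.39, 4.48 and 5.64 CPM at 14 weeks and between 1.99 and 5.42 CPM at 9 weeks (log2 change 0.73, 0.18 without replicate 2 and 0.36 with the mitochondrial share as a covariate). Trim30a, an interferon-induced ubiquitin ligase, had a log2 change of 0.75, 0.55 without that library and 0.30 with the covariate. Of 20 genes of antigen presentation by MHC class I and II, 19 were above 0 (median 0.32), and 4 were higher at an unadjusted p of 0.05, beside 4.07% of all genes; without replicate 2 the median was 0.06 and 13 were above 0. Nlrc5, the activator of class I genes, stood at 0.647, 2.89, 1.09, 1.136 and 1.68 CPM at 14 weeks and between 0.349 and 0.851 CPM with a median of 0.578 CPM at 9 weeks (log2 change 1.33, SE 0.33, adjusted p = 0.671), and its log2 change without replicate 2 was 0.91. The class I gene H2-Q4, one of a family of near-identical genes among which reads may be split, had a log2 change of 0.86, and 0.06 without replicate 2. In hTDP-43 WT cord the medians were -0.53 for the interferon list and -0.20 for the MHC list, and in A315T cord -0.10 and 0.30.

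Of 22 genes of homeostatic microglia 20 were above 0 (median 0.18), and 2 were higher at an unadjusted p of 0.05, beside 4.07% of all genes. Mertk, a receptor for the uptake of dying cells that astrocytes and microglia both use, had 14.1 ± 4.63 CPM at 14 weeks and 8.39 ± 2.70 CPM at 9 weeks (log2 change 0.74), the integrin Itgam a log2 change of 0.66, and the purinergic receptor P2ry12, which overlaps Med12l, 0.55, all with an adjusted p of 0.671. With the mitochondrial share as a covariate the median of the list was -0.02, and the log2 changes were 0.37 for Mertk, 0.18 for Itgam and 0.09 for P2ry12. The median of 15 blood genes was 0.85 with all libraries and -0.07 without replicate 2 of 14 weeks. Hbb-bs, a beta globin, stood at 226, 1007, 236, 164 and 252 CPM at 14 weeks and between 96.3 and 277 CPM at 9 weeks. Of 20 endothelial genes 18 were above 0 (median 0.35) and none had an unadjusted p under 0.05; the median was -0.19 with the mitochondrial share as a covariate. The part of the mitochondrial share and of this library in single immune genes was not tested beyond these values.

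Of 20 genes that answer to glucocorticoids, the adrenal steroids, 15 were above 0 (median 0.18), with 5 higher and none lower at an unadjusted p of 0.05, beside 4.07% higher and 2.65% lower of all genes. The list includes Plin4 and Mertk. Hif3a, a hypoxia-inducible factor subunit that glucocorticoids raise, stood at 4.23, 12.3, 7.63, 10.5 and 9.12 CPM at 14 weeks and between 2.44 and 6.20 CPM with a median of 4.44 CPM at 9 weeks (log2 change 0.97, SE 0.27, adjusted p = 0.671), with replicate 1 of 14 weeks inside the range of 9 weeks and the other 4 above it. Pdk4, a kinase that spares glucose by blocking pyruvate dehydrogenase, averaged 20.7 ± 7.10 CPM at 14 weeks and 14.4 ± 2.19 CPM at 9 weeks (log2 change 0.52, adjusted p = 0.671; 0.19 with limma-voom), and in hTDP-43 WT and A315T cord its log2 changes were 0.42 and 0.52. The median of the list was 0.16 without the 3 libraries poor in mitochondrially encoded RNA and 0.11 without replicate 2 of 14 weeks, and it was -0.11 in hTDP-43 WT and 0.13 in A315T cord. The full palindrome of the glucocorticoid response element, searched on the 250 bases before the start, was in 1 of the 19 matched promoters (that of Sgk1). Among all genes it was in 3 of 27025 (0.0111%), so the contrast rests on 1 gene.

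The 10 mitochondrially encoded genes were all above 0 with a median of 1.02, and 6 were higher at an unadjusted p of 0.05, beside 4.07% of all genes. The complex I subunit mt-Nd5 stood at 562, 4639, 3332, 3247 and 4128 CPM at 14 weeks and between 412 and 2202 CPM with a median of 1126 CPM at 9 weeks (log2 change 1.48, SE 0.59, adjusted p = 0.671). Replicate 1 of 14 weeks lay at the level of the lowest libraries of 9 weeks and the other 4 above all of these. Without the 3 low libraries the median was 0.89 and 1 gene had an unadjusted p under 0.05. In the hTDP-43 WT and A315T lines it was -0.31 and 0.26. Nuclear genes of oxidative phosphorylation had the opposite sign, with 32 of 32 below 0 (median -0.20) and 3 lower at an unadjusted p of 0.05, beside 2.65% of all genes. Ndufs3, a complex I subunit, had 60.3 ± 11.03 CPM at 14 weeks and 76.9 ± 10.1 CPM at 9 weeks (log2 change -0.35). The median of the list was -0.13 with the mitochondrial share as a covariate. It was -0.19 in hTDP-43 WT and -0.04 in A315T cord, with 25 of 32 genes below 0 in each, so both lists were below 0 in hTDP-43 WT cord.

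**Figure D5:**
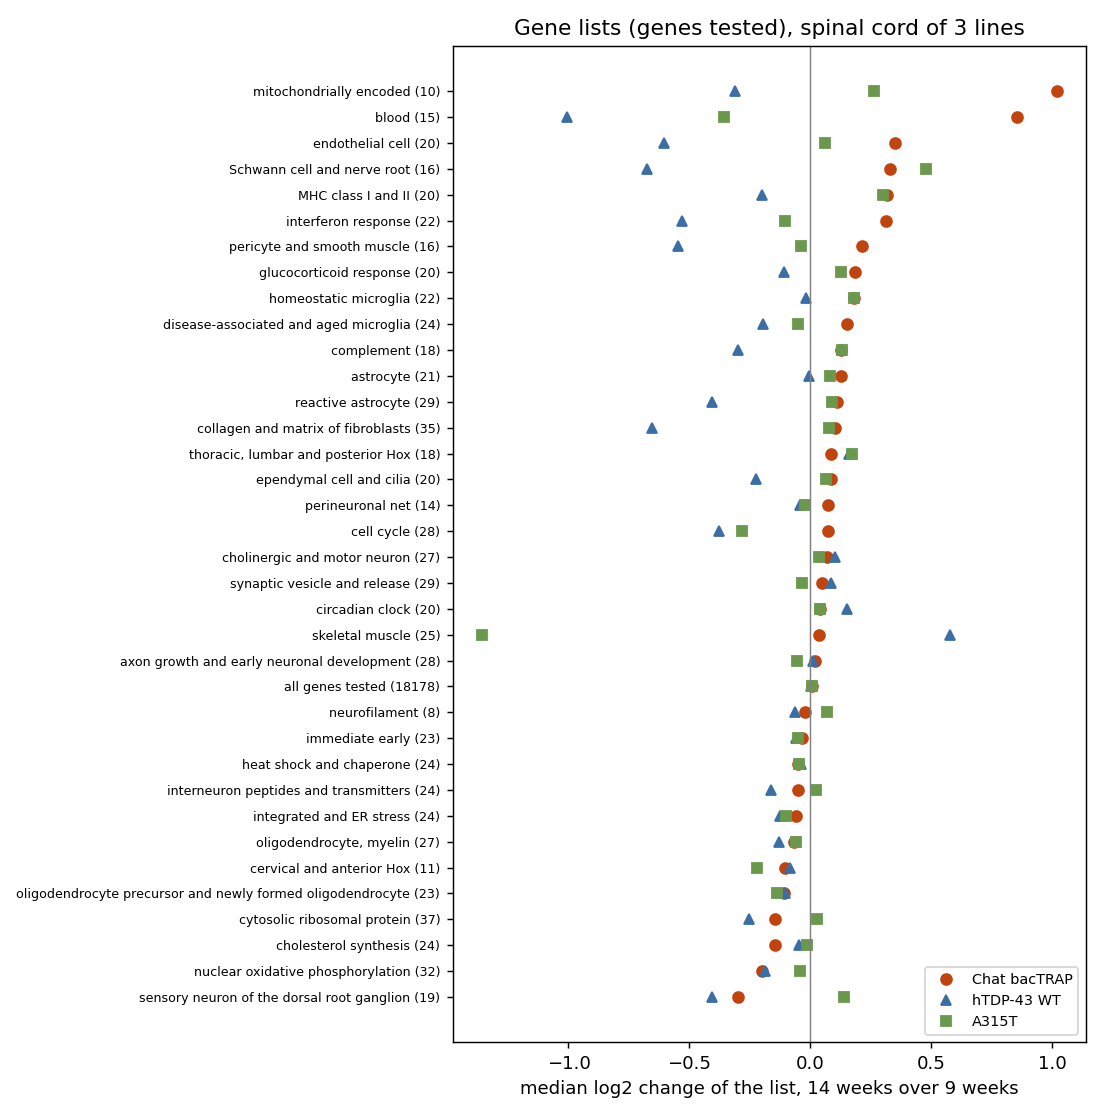
Median log2 change at 14 over 9 weeks of each of 35 gene lists and of all genes tested, in Chat bacTRAP, hTDP-43 WT and A315T cord. In Chat bacTRAP cord the mitochondrially encoded genes (1.02) and the blood genes (0.85) lie highest, the cholesterol genes at -0.15, and all genes at 0.01; many lists take the other sign in another line.

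Whether an age difference was particular to the Chat bacTRAP line was tested gene by gene as the difference of the age changes between lines, which share no library. No gene passed adjustment by edgeR, against hTDP-43 WT (802 genes, 4.41%, at an unadjusted p below 0.05) or against A315T (351 genes, 1.93%), nor by DESeq2 (unadjusted 1128 and 527) or limma-voom (2012 and 1218). Within the other lines, no gene passed the edgeR test between 14 and 9 weeks either, with 1783 genes (9.81%) at an unadjusted p below 0.05 in hTDP-43 WT cord and 230 (1.27%) in A315T cord. Of these, 1030 (5.67%) were higher and 753 (4.14%) lower in hTDP-43 WT cord, and 135 (0.743%) higher and 95 (0.523%) lower in A315T cord.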

How the data were processed

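Polyadenylated RNA of spinal cord input was sequenced, and the counts are whole-number reads per Ensembl gene as deposited by the authors, made with STAR and featureCounts on mm10 (GRCm38). The authors' size-factor normalized values of the same libraries were not used. The library kit (NEBNext Ultra) does not mark strand. Among the genes named, Tuba1a, Irf7, Itgam, Ndufs3, Cfap43, Tardbp, Chat, Xist and mt-Nd5 also overlap an annotated protein-coding gene. Reads of those shared stretches cannot be assigned with certainty. Libraries were grouped by title. Genes kept by filterByExpr (18178 of 43629) were fitted in R 4.3.3 with edgeR 4.0.16 (TMM, estimateDisp, robust glmQLFit, glmQLFTest) over the 31 cord libraries in 6 groups of line and age, which leaves 25 residual degrees of freedom, with Benjamini-Hochberg adjustment over all genes. CPM are counts scaled by TMM library size. Single values per library were compared by exact two-sided permutation tests. Alternatives were DESeq2 1.42.0, limma 3.58.1 voom with quality weights, other normalization, filters and libraries, a replicate block and leaving out each library. Added after seeing the data were 2 fits concerning mitochondrially encoded RNA, without the 3 libraries low in it or with its share as a covariate. Since that share was higher on average at 14 weeks, the covariate can also absorb part of an age change. The test was checked on simulated counts.

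Named genes were those past the test, then the 6 of smallest p in each direction with a mean of at least 1 CPM, up to 4 members of each gene list by p, and marker checks. The comparison, members and lists were chosen with earlier results of these data known. Gene positions come from GENCODE M21, promoters from RefSeq. The values of some single genes are not reported here. Counting intervals were not computed, since the spread between libraries sets the error.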

Additional observations from a re-analysis of the deposited data

Results flagged for a closer look

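Of 110 groups of libraries examined (53 genes and 2 library measures at each age), 7 held a library far from the others of its age, and chance alone gives about 1 in 20. Replicate 2 of 14 weeks was the highest of its age for Xdh (7.64 CPM), the class I gene H2-Q4 (8.11 CPM) and the interferon factor Irf7 (14.8 CPM). Replicate 5 of 14 weeks, the shallowest library of its age, was lowest for Rassf10 (0.689 CPM) and highest for Rras2 (14.3 CPM) and Hmgcs1 (683 CPM). At 9 weeks, replicate 1 was lowest for Atp1b2 (682 CPM). None of these 7 genes passed the adjusted test with all libraries.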

How the results depend on the processing

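The number of genes past the test, 1 in the fit reported, was 5 with DESeq2 (Rab7b, Fmo2, Serpina3k, Plin4 and Gramd3; Serpina3k was named after its result was seen), 2 with limma-voom, and 0 with all 56 libraries (187 genes at an unadjusted p under 0.05), with the 11 libraries alone (756) and with the replicate number as a block in 10 libraries (1204). Leaving out single libraries gave 1 to 2, the second gene being Fmo2 without replicate 1 of 14 weeks and Gramd3 without replicate 5 of 14 weeks. The number also at least 2-fold, 0 as reported, was 3 with DESeq2 and 0 to 1 without single libraries. The replicate numbers did not pair the libraries: same-numbered deviations correlated at -0.30 to 0.18, no library matched its own number best, and under the block Rab7b had a log2 change of -0.84 and an adjusted p of 0.604. Rab7b ranged from -0.88 to -0.68 and passed the test in 17 of 20 alternatives. Of 53 genes followed through the 20 alternatives, none changed sign. Most of them were named for a small p in this comparison and the alternatives refit the same libraries, so this is no independent check. The other genes named were not followed.

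The difference in mitochondrially encoded share, 2.86 percentage points, ranged from 2.19 to 4.04 without single libraries (exact permutation p = 0.00952 without replicate 1 of 14 weeks), and that in library total, 14.5 M counts, from 9.19 to 18.8 (exact p = 0.0143 without replicate 5 of 14 weeks). The cholesterol median ranged to -0.22, that of precursors was -0.03 with limma-voom, and the myelin median was -0.18 without the 3 libraries low in mitochondrially encoded RNA. The cause of these shifts was not tested. Median-ratio normalization and no filter on low counts each gave 1 gene.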

Other observations

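Cytosolic ribosomal protein genes were below 0 in 32 of 37 (median log2 change -0.15), with 1 lower at an unadjusted p of 0.05 (2.65% of all genes), and the median was -0.25 in hTDP-43 WT cord and 0.03 in A315T cord. Genes of Schwann cells and nerve roots were above 0 in 14 of 16 (median 0.33), and the adhesion gene Cdh19 averaged 23.5 ± 11.6 CPM at 14 weeks and 13.7 ± 2.69 CPM at 9 weeks (log2 change 0.77, and 0.34 with the mitochondrial share as a covariate); the list's median was 0.08 without replicate 2 of 14 weeks. Sensory neuron genes of the dorsal root ganglion were below 0 in 15 of 19 (median -0.30), none at an unadjusted p under 0.05. Anterior Hox genes, which mark the cervical cord, had a median of -0.11 (9 of 11 below 0) and posterior Hox genes 0.09 (13 of 18 above 0), with none at an unadjusted p under 0.05. The clock repressor Nfil3 averaged 11.8 ± 2.31 CPM at 14 weeks and 14.8 ± 1.96 CPM at 9 weeks (log2 change -0.32), and the heat shock cochaperone Dnajb1 had a log2 change of -0.37; neither passed adjustment. The cilia gene Cfap43 had a log2 change of 0.71, and 0.31 with the mitochondrial share as a covariate. The complement gene C4b had log2 changes of 0.50 in Chat bacTRAP, 0.00 in hTDP-43 WT and 0.57 in A315T cord.

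A further 3 genes without overlap between the ages, named after their values were seen, were lower at 14 weeks without passing adjustment. Gamt, the methyltransferase of creatine synthesis, averaged 29.5 ± 8.84 CPM at 14 weeks and 47.8 ± 5.98 CPM at 9 weeks, the cell cycle inhibitor Cdkn1c 34.0 ± 3.89 CPM at 14 weeks and 45.3 ± 3.34 CPM at 9 weeks, and the ubiquitin ligase Rnf122 12.9 ± 1.58 CPM at 14 weeks and 17.6 ± 1.56 CPM at 9 weeks. Rnf122 was also without overlap and lower in A315T cord. In MN-TRAP of the same line, both ages together, Rab7b had a median of 1.96 CPM (0 to 5.17, 8 libraries) against 9.91 CPM (5.56 to 13.3, 11 libraries) in cord, with all 56 libraries scaled together.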
